A study of Mus musculus with 8 samples.

Results

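MHC class II transcription is switched on by a machinery encoded by 8 genes: the coactivator Ciita, the RFX subunits Rfx5, Rfxap and Rfxank, the NF-Y subunits Nfya, Nfyb and Nfyc, and Creb1. They were represented by all probe sets annotated with the symbol of 1 of them and no other, which gave 21 probe sets for 8 genes, of 45037 probe sets and 18193 named genes in all. Creb1 had 6 of them, Ciita, Rfxank and Nfya 3 each, Rfxap and Nfyb 2 each, and Rfx5 and Nfyc 1 each. They were measured in germinal centre B cells of C57BL/6 mice, taken from lymph nodes 12 days after NP-KLH in alum (a hapten on a carrier protein) was given under the skin, and carrying B220 and CD95 but not CD38. Light zone cells filled 4 Affymetrix arrays and dark zone cells filled 4, with 1 sorted RNA sample per array, labelled as biological replicates. The labels give neither the animals' age nor whether a sample pooled several animals, so p-values measure the spread between these samples only.

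CIITA does not bind DNA itself. It docks on a platform of factors assembled at a short promoter module of class II genes, in which the RFX complex sits on the X box, CREB1 on the neighbouring X2 box and the NF-Y trimer on the Y box, an inverted CCAAT sequence. Loss of CIITA or of an RFX subunit abolishes class II expression in human bare lymphocyte syndrome, while NF-Y and CREB1 also serve many other promoters, including those of cell cycle genes. Light zone B cells present antigen on class II to follicular helper T cells, and dark zone B cells divide and mutate their antibody genes.

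The module can be read in the class II promoters whose genes were measured on the arrays. The stretches below come from RefSeq promoter windows (GRCm38.p6, from 250 bases before to 50 after an annotated start), each 5′ to 3′ on the gene's own strand. Capitals mark TGATTGG, the Y box letters bound by NF-Y, a GNAAC core of the X box found 20 to 40 bases upstream of it, and in H2-Aa a full TGACGTCA, the palindrome that CREB1 binds. The GNAAC core and its spacing were chosen after these windows had been read.
H2-Aa (chr17:34287859-34287918, minus strand): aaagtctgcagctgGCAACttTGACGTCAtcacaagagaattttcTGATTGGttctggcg
H2-Eb1 (chr17:34305761-34305820, plus strand): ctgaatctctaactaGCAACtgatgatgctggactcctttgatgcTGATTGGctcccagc
H2-Eb2 (chr17:34325528-34325587, plus strand): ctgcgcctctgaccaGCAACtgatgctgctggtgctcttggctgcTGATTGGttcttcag
H2-DMb2 (chr17:34145112-34145171, plus strand): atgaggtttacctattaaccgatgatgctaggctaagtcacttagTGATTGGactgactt
H2-Oa (chr17:34092289-34092348, plus strand): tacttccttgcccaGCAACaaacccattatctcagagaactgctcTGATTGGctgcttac
H2-Ob (chr17:34238801-34238860, plus strand): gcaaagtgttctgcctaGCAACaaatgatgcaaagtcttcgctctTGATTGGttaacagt

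Of 7 measured class II genes with a promoter window, 6 held TGATTGG on either strand, and in 5 the X core lay 23 to 26 bases upstream of it. Of all 32851 promoter windows, 7.82% held TGATTGG and 0.572% held the spaced pair. H2-DMa held neither in its 2 windows, and only H2-Aa held TGACGTCA, which stood in 1.79% of all windows. Among the regulators themselves, 6 genes had a window, and 4 of them held a CCAAT on either strand in at least 1 of their windows (Rfx5, Rfxank, Nfya and Nfyc), a core found in 37.4% of all windows. A count of genes and a share of windows are unlike measures. Nfya and Nfyc had several windows each and held CCAAT in only some of them. Of the 6, Nfyc also held TGATTGG on either strand, as did Rfx5, and Nfyc did not pass the test given below. Rfxank and Nfya, called higher in the light zone below, held none. The Rfx5 promoter is shown because Rfx5 moved with the class II genes, and its 2 CCAAT copies, in capitals, each read CCAATCA, the reverse complement of the Y box letters.
Rfx5 (chr3:94953985-94954068, plus strand): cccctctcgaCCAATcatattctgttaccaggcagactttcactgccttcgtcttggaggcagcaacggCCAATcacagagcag

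**Figure D1:**
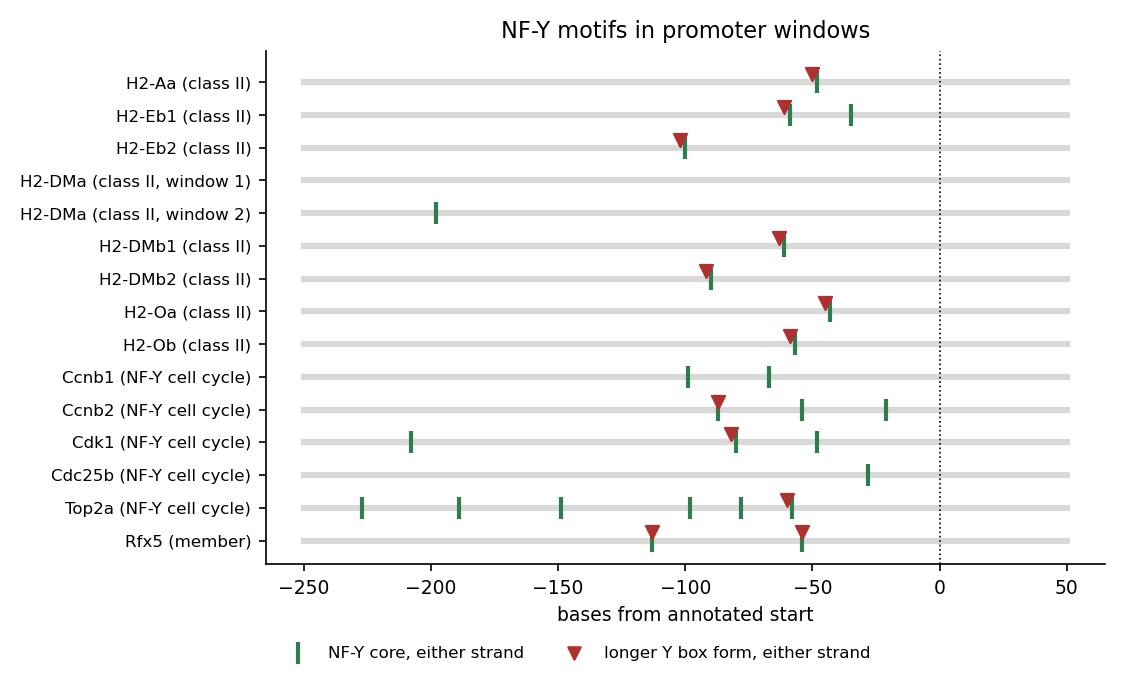
Position of NF-Y motifs in the promoter windows of class II genes, of cell cycle genes known as NF-Y targets and of Rfx5, in bases from the annotated start (0, dotted). Green bars mark the 5-letter core and red triangles its 7-letter Y box form, on either strand. In the class II genes that hold the longer form it lies between 45 and 102 bases before the start, and the H2-DMa windows hold none.

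The labels describe the light zone sort as CXCR4 high and CD83 low, and the dark zone sort as the opposite, against the usual definition. Cd83 mRNA was higher and Cxcr4 mRNA lower in the arrays titled light zone, by 2.32 and -0.96 on the log2 scale (light minus dark, as everywhere below), and no array lay on the other side. Groups were taken from the titles. The values are RMA intensities, a background-corrected and quantile-normalized summary of the probes of a probe set, and array medians lay between 27.3 and 28.1. Of 9 measured T cell markers and 6 of follicular dendritic and stromal cells, 2 (Thy1 and Il7r, both below the median probe set) and 0 passed the test. Of 12 measured dendritic cell and macrophage markers, Cd68 passed as higher in the light zone (0.40), and Lyz2 (-2.98) and Csf1r (-1.39) passed as lower. Lyz2 was at 43.0, 40.7, 37.7 and 89.1 in light zone arrays, against 128, 461, 466 and 824 in dark zone arrays, and Csf1r at 19.7 to 26.9, against 30.2 to 126, with other Csf1r probe sets at -0.40 and -0.10, of which the second did not pass. The summed intensity of the 12 was 870 to 972 in light zone arrays, against 919 to 1846 in dark zone arrays. The other 9 did not pass and gave -0.23 to 0.01, with Siglech (-0.23), Cd14 (-0.21), Itgam (-0.14) and Flt3 (-0.10) at the lower end and Itgax, Adgre1, Zbtb46, Xcr1 and Cd209a between -0.07 and 0.01. All 6 measured germinal centre B cell markers lay at or above the median probe set, and 3 of them (Gcsam, Mybl1 and S1pr2) were lower in the light zone, S1pr2 by 1 of 2 probe sets (-0.26, the other -0.03). Both measured naive and memory B cell markers, Ccr6 (3.53) and Fcer2a (2.06), were higher there, with summed intensities of 2723 to 2922, against 567 to 636 in dark zone arrays. Of 4 measured plasma cell markers, only Prdm1 passed, as higher in the light zone (1.37). Xbp1 (0.15), Sdc1 (0.14) and Jchain (-0.15) did not pass. In bulk samples, fewer cells of a type and less RNA per cell cannot be told apart, and the part of these markers in the results was not tested.

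Among the regulators, Ciita, Rfx5, Nfya and Rfxank were higher in the light zone, Nfyb was lower, and Rfxap, Nfyc and Creb1 did not pass the test. Each gene is represented here by its brightest probe set over all 8 arrays, and a call is an adjusted p under 0.05 in limma, fitted over all 45037 probe sets with Benjamini-Hochberg adjustment. Thus 5 of the 8 genes (62.5%) were called, 4 higher and 1 lower. Over all 18193 genes, each by its brightest probe set, 24.2% were called in either direction and 13.7% higher in the light zone. All 8 regulators had a probe set at or above the median probe set mean of 28.0, and of the 10542 genes that did, 38.4% were called, 22.3% higher and 16.2% lower in the light zone. The same 5 regulators had light zone and dark zone arrays that did not overlap, as did 27.4% of all genes and 41.4% of the brighter ones. The median difference of the 8 was 0.20, beside 0.01 over those 10542 genes. So few genes cannot show that the machinery moves more often than other genes do.

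**Figure D2:**
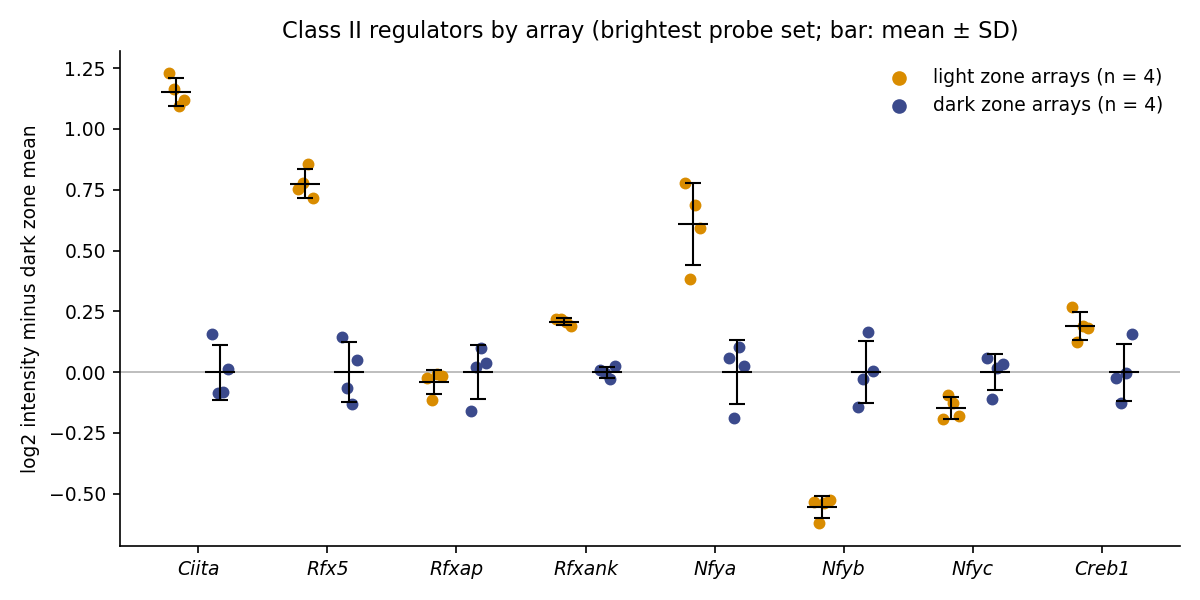
Log2 intensity of the brightest probe set of each class II regulator in every array, relative to the mean of the dark zone arrays, with light zone arrays (orange, n = 4) left of dark zone arrays (blue, n = 4) and bars for mean ± SD. Light zone arrays lie above all dark zone arrays for Ciita, Rfx5, Rfxank and Nfya and below them for Nfyb, and the groups overlap for Rfxap, Nfyc and Creb1.

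Ciita, the class II transactivator, had the largest shift of the 8. Its brightest probe set, 1421211_a_at, read 1328, 1270.5, 1211 and 1231 in light zone arrays, against 631, 534, 535 and 571 in dark zone arrays. The lowest light zone array stood far above the highest dark zone array. The light zone mean was 1260.04 ± 51.7 and the dark zone mean 568 ± 45.5 in the dark zone (SD, n = 4 each), a ratio of 2.22 and a log2 difference of 1.15 (SE 0.07, limma adjusted p = 1.1e-07). In size this exceeded 97.8% of the 10542 brighter genes.

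The other Ciita probe sets pointed the same way with smaller differences. Probe set 1447075_at read 278, 276, 250.01 and 247 in light zone arrays, against 186, 182, 163 and 214 in dark zone arrays. The groups stood apart by 0.50 (limma adjusted p = 6.8e-04, SE 0.08). Probe set 1421210_at read 512, 399.6, 455 and 410.3 in light zone arrays, against 385, 336, 382 and 365 in dark zone arrays. These groups did not overlap either and stood apart by 0.27 (limma adjusted p = 0.034, SE 0.08), but the call was lost when any 1 of 4 arrays was left out (replicates 1 and 3 of the light zone, 2 and 4 of the dark zone), with adjusted p from 0.067 to 0.10. This probe set and the brightest are annotated with the same sequence record. The shift of the brightest exceeded that of 1421210_at by 0.88 and that of 1447075_at by 0.65 (two-sided exact permutation over the 70 arrangements of 4 against 4 arrays, p = 0.0286 each, the smallest it can give, and 0.152 adjusted over the 16 pairs of probe sets compared within genes).

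**Figure D3:**
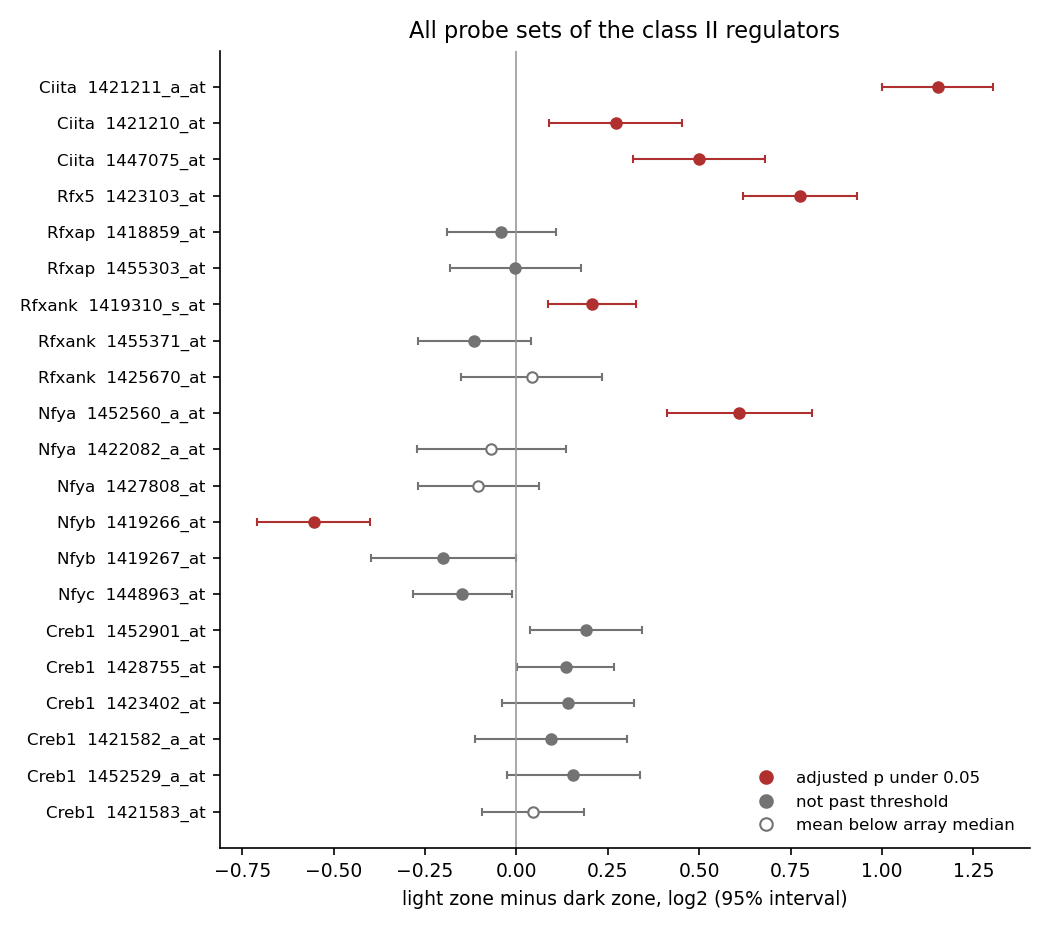
Light zone minus dark zone difference on the log2 scale for all 21 probe sets of the class II regulators, with 95% intervals. Red marks an adjusted p under 0.05 and open symbols a mean intensity below the array median. The 3 Ciita probe sets lie on the light zone side between 0.27 and 1.15, and the 6 Creb1 probe sets lie between 0.04 and 0.19 without passing.

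Rfx5, the DNA-binding subunit of the RFX complex, was the regulator next in size. It read 1509, 1533, 1619 and 1472 in light zone arrays, against 989.5, 856, 817 and 928 in dark zone arrays. The lowest light zone array stood well above the highest dark zone array. The means were 1533 ± 62.3 and 897 ± 76.6 (SD, n = 4 each), a ratio of 1.71 and a difference of 0.78 (SE 0.07, limma adjusted p = 4.5e-06). Its partners did not share this. Rfxap, the RFX-associated protein that bridges the complex, read 194, 182, 196 and 195 in light zone arrays, against 177, 200.2, 211 and 202 in dark zone arrays. Dark zone replicate 1 lay below all light zone arrays and the other 3 lay above them. Its difference was -0.04 with a 95% interval from -0.19 to 0.11 (limma adjusted p = 0.75), and the dimmer probe set gave 0.00 (interval -0.18 to 0.18).

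Rfxank, the ankyrin repeat subunit, gave a small difference that depended on the probe set. The brightest, 1419310_s_at, read 92.8, 92.7, 91.9 and 91.0 in light zone arrays, against 80.2, 79.5, 78.2 and 81.0 in dark zone arrays. These values were tight and did not overlap, and gave a difference of 0.21 (SE 0.06, limma adjusted p = 0.016). The suffix marks a probe set that can also detect transcripts of other genes. Probe set 1455371_at averaged 79.3 ± 5.9 in light zone arrays and 85.9 ± 4.8 in dark zone arrays (SD, n = 4 each), with overlapping arrays and a difference of -0.12 (SE 0.07, limma adjusted p = 0.31), and the third, below the median, gave 0.04. The shifts of the first and second differed by 0.32 (exact permutation p = 0.0286, the smallest possible, and 0.152 adjusted over 16 pairs). The Rfxank call was lost after a further quantile normalization (adjusted p = 0.061), with an intensity trend and robust variance (0.066) and when its probe sets were averaged (0.045 on the log2 scale, adjusted p = 0.53).

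Compared within arrays by brightest probe set, the shift of Rfx5 exceeded that of Rfxap by 0.82 and that of Rfxank by 0.57, and the shift of Rfxap fell short of that of Rfxank, at -0.25. Each was tested by two-sided exact permutation of the ratio within arrays, with p = 0.0286, the smallest the 70 arrangements allow, also after adjustment over the 6 pairs of subunits within the RFX and NF-Y complexes. For Rfx5 against either partner this p follows from the shift of Rfx5 alone, and adds no further support. On the log2 scale the Rfx5 gap between zones exceeded the full range of each partner over all arrays. With the probe sets of each gene averaged, a setting added after the data had been seen, Rfx5 still exceeded Rfxap (0.80) and Rfxank (0.73), while Rfxap and Rfxank differed by -0.07 and no longer passed (adjusted exact permutation p = 0.286). The difference between those partners therefore rests on the brightest Rfxank probe set.

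The NF-Y subunits moved apart. Nfya, the sequence-specific subunit, was higher in the light zone: probe set 1452560_a_at read 258, 197, 243 and 228 in light zone arrays, against 157, 132, 162 and 154 in dark zone arrays. Light zone replicate 2 was the lowest of its group and still lay above all dark zone arrays. The means were 232 ± 26.3 and 151 ± 13.2 (SD, n = 4 each), a difference of 0.61 (SE 0.09, limma adjusted p = 2.8e-04). The other 2 Nfya probe sets had means between 13.4 and 17.8, below the median probe set, and gave -0.07 and -0.10 with overlapping arrays. The Nfya result therefore rests on 1 probe set, and averaging the 3 gave 0.15 (limma adjusted p = 0.15).

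Nfyb, a histone-fold subunit, went the other way. Probe set 1419266_at read 603, 567, 600.3 and 605 in light zone arrays, against 790.1, 855, 979 and 875 in dark zone arrays. All light zone arrays lay below the lowest dark zone array. The means were 594 ± 17.9 and 875 ± 78.3 (SD, n = 4 each), a ratio of 0.68 and a difference of -0.56 (SE 0.07, limma adjusted p = 8.4e-05). The second probe set, 1419267_at, had means of 455 ± 44.0 and 523 ± 58.2 (SD, n = 4 each), overlapped between zones and gave -0.20 (SE 0.09, limma adjusted p = 0.15). Averaged, the 2 probe sets still passed, at -0.38 (limma adjusted p = 9.4e-04).

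Nfyc, the partner histone-fold subunit, read 483, 517, 504 and 487 in light zone arrays, against 574, 511, 558 and 564 in dark zone arrays. Dark zone replicate 2 fell inside the light zone range. The difference was -0.15 with an interval from -0.28 to -0.01 (limma adjusted p = 0.12), and it passed only with 16 added to each value before the log (-0.14, adjusted p = 0.040). Within arrays, the ratio of Nfya to Nfyb was higher in the light zone by 1.16, that of Nfya to Nfyc by 0.76, and that of Nfyb to Nfyc lower, at -0.41. Each had an exact permutation p of 0.0286, the smallest possible, before and after adjustment over the 6 pairs. For Nfya to Nfyb this p follows from the opposite, non-overlapping shifts of these genes given above, and adds no further support. For the ratios to Nfyc it follows from the shift of Nfya or Nfyb alone, and adds no support either. On the log2 scale the gap between zones of Nfya and that of Nfyb each exceeded the full range of Nfyc. With probe sets averaged the differences in ratio were 0.52, 0.29 and -0.23, all at an adjusted exact permutation p of 0.0343.

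**Figure D4:**
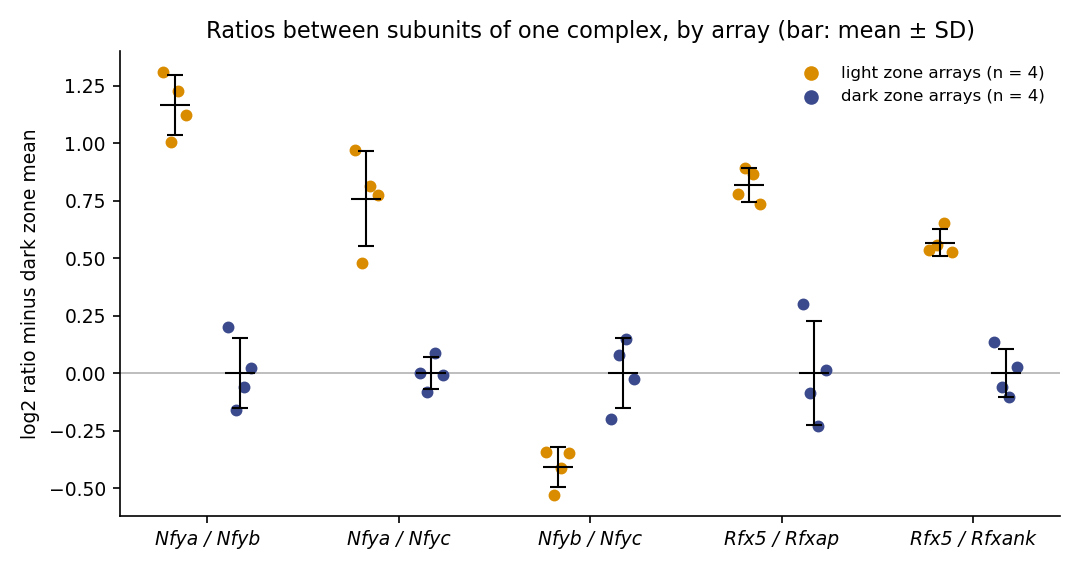
Log2 ratios between subunits of NF-Y and of the RFX complex in every array, relative to the mean of the dark zone arrays, light zone (orange, n = 4) left of dark zone (blue, n = 4), with bars for mean ± SD. The Nfya to Nfyb ratio lies between 1.00 and 1.31 in light zone arrays and between -0.16 and 0.20 in dark zone arrays.

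Creb1, the cAMP-responsive activator that occupies the X2 box, did not pass by any of its 6 probe sets. The brightest, 1452901_at, read 1215, 1102, 1151 and 1144 in light zone arrays, against 993, 925, 1006 and 1125 in dark zone arrays. Dark zone replicate 4 reached into the light zone range and the other dark zone arrays lay below it. The difference was 0.19 with an interval from 0.04 to 0.34 (limma adjusted p = 0.076). The other 5 gave 0.04 to 0.16, with adjusted p from 0.15 to 0.70. The brightest passed without dark zone replicate 4 (0.24, limma adjusted p = 0.025), with an intensity trend and robust variance (0.039), in a fit over brighter genes only (0.043) and with 16 added to each value (0.0497), so its call turned on the setting.

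Set against its partners, Ciita had the larger shift toward the light zone in each of 7 comparisons. By brightest probe set, its shift exceeded that of Rfx5 by 0.38, Nfya by 0.54, Rfxank by 0.94, Creb1 by 0.96, Rfxap by 1.19, Nfyc by 1.30 and Nfyb by 1.71. All had p = 0.0286 by two-sided exact permutation, the smallest possible, also adjusted over the 7. For Nfyb this p follows from the opposite, non-overlapping shifts of Ciita and Nfyb given above, and adds no further support. For Rfxank, Creb1, Rfxap and Nfyc it follows from the shift of Ciita alone, and adds no support either. On the log2 scale the Ciita gap between zones exceeded the full range of each of these genes over all arrays. The comparison with Rfx5 turned round when the 3 Ciita probe sets were averaged, to -0.13 (adjusted exact permutation p = 0.086). Over all 21 probe sets, 6 were called higher and 1 lower in the light zone (33.3%), where 21.8% of all probe sets on the array were called, and 7 had arrays that did not overlap, where 23.9% of all probe sets had.

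Among the dark zone arrays, replicate 1 lay nearest the light zone for Ciita (631), Rfx5 (989.5) and Nfyb (790.1). For Nfya the nearest was replicate 3 (162) and for Rfxank replicate 4 (81.0). Replicate 1 was also the dark zone array with the least Lyz2 (128). Against that array alone, chosen after the data had been seen, the light zone mean differed by 1.00 for Ciita, 0.63 for Rfx5, 0.55 for Nfya, -0.41 for Nfyb and 0.20 for Rfxank. A single array has no spread of its own, so these are values without a test, and the part of Lyz2-bearing cells in the results was not tested.

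The class II genes that CIITA serves were higher in the light zone in all 9 measured cases, by 0.19 to 0.98 with a median of 0.43, where 22.3% of the brighter genes were called higher. H2-Oa, the alpha chain of the H2-O modulator of peptide loading, read 2120.2 to 2341 in light zone arrays, against 1069.8 to 1135 in dark zone arrays (0.98, SE 0.06, limma adjusted p = 1.3e-07). H2-DMb2 and H2-DMa, chains of the peptide exchange catalyst H2-M, differed by 0.82 (SE 0.06) and 0.65 (SE 0.07), and a dimmer H2-DMb2 probe set (0.21) did not pass. H2-Eb2, a class II beta chain gene, differed by 0.60 (SE 0.07). These are among the promoters shown above, apart from H2-DMa, whose windows held no TGATTGG. The conventional chain gene H2-Aa, with the X, X2 and Y letters all present, had the smallest difference of the 9 (0.19, SE 0.06, limma adjusted p = 0.044). Its probe set was also the brightest of the 9, with means of 14679.5 in light zone and 12877.4 in dark zone arrays. Whether such a high intensity limits the difference was not tested. Nlrc5, the class I counterpart of Ciita, read 378 to 474 in light zone arrays, against 206 to 231 in dark zone arrays, and rose by 0.90 (SE 0.08). The class I genes H2-K1 (0.59), B2m (0.42) and H2-D1 (0.36), which carry a similar module, were higher too, so 4 of 4 on this list passed. Class I probe sets can detect several related genes, and 4 of the 9 for H2-D1 and 1 of the 4 for H2-K1 did not pass. Suffixes of the brightest H2-Aa, H2-Ab1 and H2-DMb2 probe sets mark the same limit, and H2-DMb1 had no probe set of its own.

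The cell cycle genes known as NF-Y targets went the opposite way: 6 of 6 measured were lower in the light zone, with a median of -0.94, where 16.2% of the brighter genes were called lower. Ccnb2, a mitotic cyclin, read 899 to 978 in light zone arrays, against 2760.1 to 3115 in dark zone arrays (-1.64, SE 0.07, limma adjusted p = 3.0e-09). The phosphatase genes Cdc25c (-1.16) and Cdc25b (-1.01) and the kinase gene Cdk1 (-0.88) followed. Dark zone B cells divide, as given above, and the part of NF-Y in these differences was not tested. Of the 5 genes on this list with a promoter window, 5 held CCAAT on either strand, 3 held TGATTGG and 1, Ccnb2, held the spaced pair. These 5 include Ccnb1, which had no probe set of its own and was not measured. The measured genes Cdc25c and Ccna2 had no window, so their promoters were not read. The promoters of Ccnb2 and Cdk1 are shown to set the CCAAT copies nearest the start, in capitals and inverted in Cdk1, beside the Y box of the class II genes.
Ccnb2 (chr9:70421561-70421651, minus strand): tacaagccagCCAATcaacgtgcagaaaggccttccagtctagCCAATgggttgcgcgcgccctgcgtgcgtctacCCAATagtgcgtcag
Cdk1 (chr10:69352946-69353002, minus strand): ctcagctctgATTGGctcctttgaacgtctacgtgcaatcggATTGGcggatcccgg

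Factors known to control the Ciita promoters were divided, with 4 of 11 measured higher in the light zone, 2 lower and 5 not passing (median 0.10), where 22.3% of the brighter genes were called higher and 16.2% lower, so the lower share was near the background. Irf4, an interferon regulatory factor, read 218 to 262 in light zone arrays, against 53.7 to 68.9 in dark zone arrays, a ratio of 4.09 and a difference of 2.03 (SE 0.09, limma adjusted p = 5.6e-09), with a dimmer probe set at 0.19. Prdm1, which encodes Blimp-1, the repressor that silences Ciita in plasma cells, read 37.1 to 51.5 in light zone arrays, against 14.6 to 20.5 in dark zone arrays (1.37, SE 0.12). Its dark zone values lay below the median probe set. Irf1 (0.52) and Irf8 (0.25) were also higher, while the E protein Tcf3 (-0.71, SE 0.06) and Usf1 (-0.47, SE 0.09, with a dimmer probe set at -0.11) were lower.

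Coactivators that CIITA recruits were divided as well, with 2 of 10 higher, 3 lower and 5 not passing (median -0.13), beside 22.3% higher and 16.2% lower among the brighter genes, so the higher share was near the background. Smarca4, the BRG1 remodelling ATPase, read 758 to 880.5 in light zone arrays, against 2107 to 2418 in dark zone arrays. It was lower in the light zone by both probe sets, at -1.46 (SE 0.07, limma adjusted p = 1.6e-08) and -1.31. The acetyltransferase gene Kat2b (-0.25) and Ncoa3 (-0.20, limma adjusted p = 0.048) were lower, though other Kat2b probe sets (-0.31 and -0.04) did not pass. The acetyltransferase gene Kat2a (0.81, SE 0.07) and the arginine methyltransferase gene Carm1 (0.37) were higher, and a second Kat2a probe set at or above the median gave -0.08. A dimmer Kat2a probe set below the median gave 0.47 (limma adjusted p = 0.028) with overlapping arrays. Suffixes of that probe set and of the brightest Kat2b and Carm1 probe sets mark ones that can also detect transcripts of other genes.

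For relatives of RFX5 and of CREB1, the background was 22.3% called higher among brighter genes and 13.7% among all genes. Of 6 other RFX factors, Rfx1 was higher in the light zone (0.34, SE 0.08, limma adjusted p = 0.0055), with a dimmer probe set at -0.09, and 5 did not pass, a share near the background. Of 5 CREB relatives and CRTC coactivators, which join CREB to its target genes, the 3 Crtc genes were higher: Crtc2 by 0.88 (SE 0.08), Crtc3 by 0.34 and Crtc1 by 0.34. Second probe sets of Crtc3 (0.03) and Crtc1 (0.00) at or above the median did not pass. Suffixes of the Crtc2 probe sets mark ones that can also detect transcripts of other genes. Of 9 CREB target genes, 4 were higher in the light zone (Nr4a1 by 1.51, Junb by 1.2, Per1 by 1.03 and Per2 by 0.72) and 5 did not pass. Dimmer Per2 probe sets gave -0.03 and 0.17 and did not pass. Other pathways also drive these genes.

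**Figure D5:**
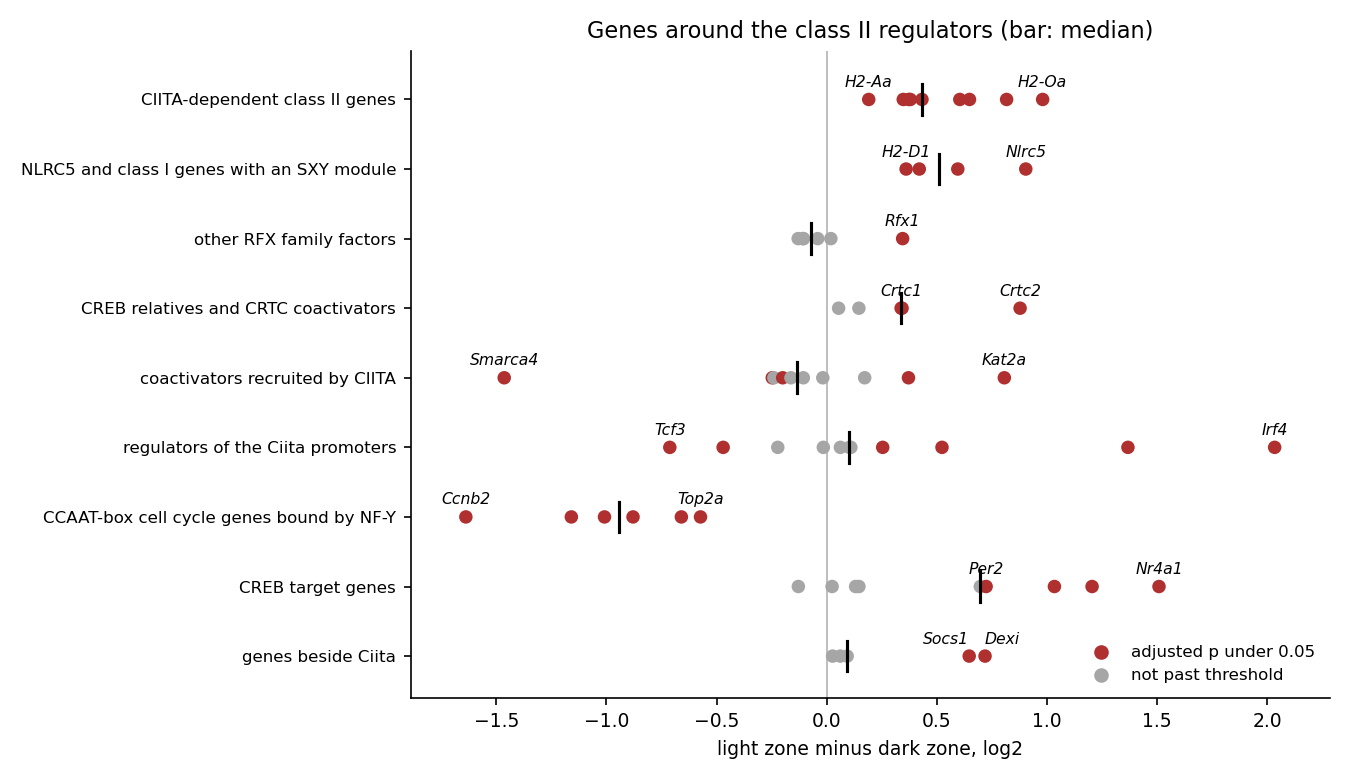
Light zone minus dark zone difference on the log2 scale for each measured gene of 9 lists around the class II regulators, 1 point per gene by its brightest probe set, red where the adjusted p was under 0.05, with a bar at the list's median. The class II and class I lists lie to the right of 0, the NF-Y cell cycle list to the left, and the coactivator and Ciita promoter lists on both sides.

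Beside Ciita on the chromosome in the reference gene table (GRCm38.p6, used for gene order), its next protein-coding neighbour Dexi was higher in the light zone. Dexi read 195 to 210.4 in light zone arrays, against 106 to 134 in dark zone arrays (0.72, SE 0.08, limma adjusted p = 1.5e-05). Socs1, the third gene on that side and an inhibitor of cytokine signalling, was higher by 0.65 (SE 0.08), with a mean below the median probe set. Clec16a between them, and Tvp23a and Nubp1 on the other side, gave 0.03 to 0.09 and did not pass.

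The genes whose log2 values correlated most with the brightest Ciita probe set over the 8 arrays, among 10541 brighter genes, were Lyst, a lysosomal trafficking regulator (Pearson r = 0.999), Swap70, a B cell signalling protein (0.998), the cytokine gene Lta (0.997), the lymphocyte GTPase gene Gimap4 (0.997) and Ms4a4c (0.997). All 5 were higher in the light zone, by 0.56 to 1.74. The arrays share their zone, so these values mostly restate the zone difference and are a description without a test. Among the regulators the correlation with Ciita was 0.992 for Rfxank, 0.988 for Rfx5, 0.926 for Nfya, 0.784 for Creb1, -0.37 for Rfxap, -0.77 for Nfyc and -0.975 for Nfyb. Within the 4 arrays of a zone these values differed, as for Rfx5 at -0.42 within the light zone and 0.95 within the dark zone.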

How the data were processed

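Total RNA of sorted light zone and dark zone cells was labelled with biotin and hybridised to 8 Affymetrix arrays, per the labels' protocols. The authors deposited 1 intensity per probe set and array, on a linear scale, made by RMA. That method is named in the submitters' processing notes, and its version is not given in the sources used here. Since RMA equalises the arrays' distributions, a change in total RNA cannot be seen, and differences of dim probe sets are understated. The number of arrays limits precision.

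The log2 of each value was taken with no pseudocount and no filter. Of 45037 probe sets, 34945 carry 1 gene symbol in the platform annotation, 932 several and 9160 are unnamed here. All 8 regulator symbols matched the reference gene table by gene identifier. Light zone was compared with dark zone by limma 3.58.1 in R 4.3.3 (lmFit, eBayes) over all probe sets, tested on simulated data with known changes. Ratios within arrays were tested by two-sided exact permutation (scipy 1.17.1), the p being the share of arrangements with at least the observed absolute difference. Intervals are at 95%.

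Members and lists were chosen with earlier results of these data known. Named are all members, in each list up to 4 genes with the largest called differences and any called against most of its list, and the 5 genes most correlated with Ciita. H2-Aa, Irf8, Ncoa3, cell type markers that did not pass, unmoved neighbours of Ciita and dim second probe sets were added after their values were seen. Genes without a probe set of their own symbol were not analysed here. Promoter sequences are from RefSeq. Alternatives changed the filter, the probe set per gene, normalization, variance model, array weights, replicate block, threshold, pseudocount and arrays included.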

Additional observations from a re-analysis of the deposited data

Results flagged for a closer look

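In 8 of 128 groups of 4 arrays examined, the highest or lowest array stood apart from the other 3 by more than Dixon's 95% critical value for the gap, which chance gives in about 1 in 20 groups. Light zone replicate 2 was lowest for Rfxap (182, others 194 to 196) and for Nfyb (567, others 600.3 to 605). Light zone replicate 1 was highest for H2-Oa (2341, others 2120.2 to 2146) and H2-DMa (2583, others 2414 to 2441). Light zone replicate 4 was highest for Lyz2 (89.1, others 37.7 to 43.0) and light zone replicate 3 lowest for Il7r (17.5, others 20.9 to 21.6). Dark zone replicate 3 was highest for Junb (45.6, others 32.4 to 33.5) and dark zone replicate 2 for B2m (7089, others 6237 to 6368).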

How the results depend on the processing

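The 4 counts of called regulators stayed within 1.5 times their value in 69 of 72 repeats. Averaging the probe sets of a gene left 2 genes higher in the light zone instead of 4, and adding 16 to each value gave 2 genes and 2 probe sets lower instead of 1. The lead of Ciita over Rfx5 turned to -0.13 with averaged probe sets, which lowers Ciita by including its smaller probe sets; the other 69 of 70 repeats of its 7 leads kept their direction and call. Of 369 repeats of single regulator probe sets, 351 kept their call, 12 lost and 6 gained it, and 0 called values changed sign. Without dark zone replicates 2, 3 and 4, calls among brighter genes were 2347 instead of 4052, and those of the class II list 5 instead of 9, of the CREB relatives 1 instead of 3, and of the coactivators 1 higher and 1 lower instead of 2 and 3; fewer samples enter that fit, and the dark zone has no spread of its own in it. The 2 genes called beside Ciita became 1 where dim probe sets were left out, which removes Socs1. With averaged probe sets, other RFX factors had 0 higher and 1 lower instead of 1 and 0. Arrays of the 2 zones share replicate numbers: deviations from the zone means correlated at 0.08 to 0.178 for equal numbers and -0.157 to 0.103 for others, and 7 of 8 arrays correlated best with their own number. With the replicate number as a block, 4 regulator genes were higher and 1 lower, as without it, and 4111 brighter genes were called. The exact permutations over 70 arrangements treated the arrays as unpaired and took no account of the replicate number. Probe set counts have no value where each gene has 1 value.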
